A study of Mus musculus with 12 samples.

Results

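One day of normal yolk sac development was followed in 6 arrays of wild-type mouse tissue, 3 from embryonic day 8.5 (E8.5) and 3 from E9.5, out of 12 arrays in the series. The arrays were taken by their genotype label, with earlier results of these data known. The 13883 genes that passed a filter on dim probes were compared between the stages. The wild-type yolk sacs came from the CD1 background and carried no mutation or treatment. The other 6 arrays, used to estimate the spread and for a closing comparison, held yolk sacs of the same stages that were homozygous for the V1068G point mutation of Arid1a (Baf250a), part of a SWI/SNF complex that remodels chromatin. The series describes 3 biological replicates per condition but does not say whether a replicate was 1 sac or a pool. The p-values therefore measure only the spread between these samples. On every array the yolk sac RNA carried Cy5, and a reference RNA from whole neonatal wild-type mice of mixed 129Sv and C57BL/6 strain carried Cy3, with no dye swap.

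The yolk sac feeds the early embryo and is the first site of blood formation. Its visceral endoderm takes up maternal nutrients through the receptors cubilin and megalin and secretes plasma proteins that the liver makes later. Beneath it lie mesoderm, in which primitive red cells, megakaryocytes and macrophages arise beside the first endothelium, and a mesothelium. During this day blood begins to circulate, and the first capillary net is remodelled into larger vessels.

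Markers of the cell types of the yolk sac were detected. All 8 visceral endoderm markers, all 6 of primitive erythroblasts and all 4 of endothelium were well above background on all 6 arrays, as were 4 of the 5 of mesenchyme and mesothelium. So were 12 of 14 markers of parietal endoderm and 18 of 24 of heart and muscle, so detection alone does not identify the tissue. The summed normalized Cy5 intensity of the visceral endoderm markers ran from 43600 to 49600 at E8.5 and from 62600 to 71600 at E9.5. That of the erythroblast markers ran from 60900 to 66400 and from 71600 to 75700. Cy5 was well above background at 47.4% to 48.9% of the probes on the E8.5 arrays and at 50.2% to 50.7% on the E9.5 arrays. The part of this difference in the results was not tested. Precision is limited by the number of arrays, and a stage difference had a median standard error (SE) of 0.0674 on the log2 scale. Each of the 3 slides held 1 array of each group in a position fixed by the group, so position and stage cannot be told apart.

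Transcripts of neighbouring tissue stood out most on a pair of arrays. The 24 heart and muscle markers summed to 7660 intensity units on E8.5 replicate 2, against 5060 and 5210 on the other E8.5 arrays and 4640 to 5150 at E9.5. The same array was highest in the 21 neural markers, at 2190 against 1650 to 1750 elsewhere, and 10 of these, among them Sox1, Neurog2 and Dcx, were not well above background on any of the 6 arrays. The 27 trophoblast and placenta markers summed to 3980 on E9.5 replicate 3 and to between 1680 and 1830 on the other 5 arrays, and 12 of them were not well above background on any. Xist, the RNA of the inactive X chromosome, stood at -4.02 on E9.5 replicate 2 and between -1.98 and -0.67 on the other arrays, and the Y-linked gene Ddx3y at 0.44 against -0.27 to 0.06. The part of embryo sex in the results was not tested. Transcripts of neighbouring tissue were not confined to the pair. Prl8a2, a marker of decidua, was well above background on all 6 arrays, at 3.17 on E8.5 replicate 3 and 0.74 to 2.47 elsewhere. Prl4a1, of trophoblast, stood at 4.31 on E9.5 replicate 3 and at 0.49 to 1.53 on the other arrays. Counts without E8.5 replicate 2 and E9.5 replicate 3 are given for the lists in which they moved most.

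Between E8.5 and E9.5, 1781 of 13883 genes rose (12.8%) and 1522 fell (11%), at a Benjamini-Hochberg adjusted p under 0.05 in limma. A level is the log2 ratio of yolk sac over reference, and a difference is E9.5 minus E8.5, so that 1 stands for a doubling. Most changes were modest, with a median size of 0.29 among the genes called, and 43 genes rose and 11 fell at least 2-fold (0.31% and 0.0792%). The arrays of the stages did not overlap in 3210 of the 3303 genes called (23.8% of all), and in 5204 of all genes (37.5%). In whole tissue, fewer cells of a type and less RNA per cell cannot be told apart.

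The balance of rises and falls depended on the normalization within arrays. With each array centred on its median in place of loess, the median of all genes moved from -0.011 to 0.106, and of 1458 genes called 94.7% rose. Of the 1522 genes that fell, 97.4% still lay below 0 under median centring and 100% below that shifted median, but most lost their call, so falls are stated relative to the other genes on the array. The count of genes called was 2612 without E8.5 replicate 2 and E9.5 replicate 3.

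**Figure D1:**
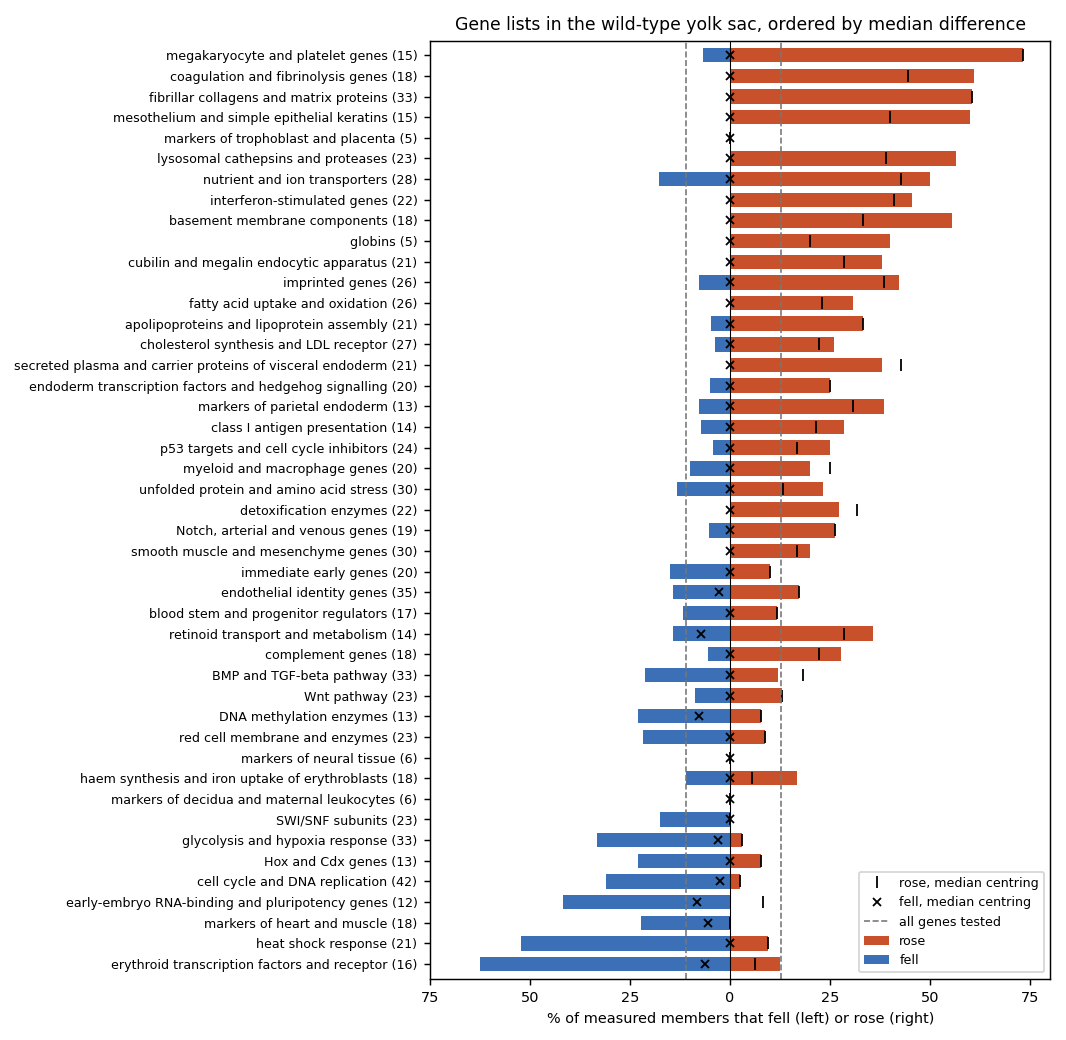
Share of the measured members of each gene list that rose (right, orange) or fell (left, blue) from E8.5 to E9.5 in the wild type, with the number measured in brackets; dashed lines give all genes tested (12.8% and 11%), and black marks give the same shares with median centring. Megakaryocyte, coagulation and collagen genes have the largest shares that rose, erythroid factors and heat shock genes the largest that fell, and with median centring nearly all falls lose their call.

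The largest rise was that of Pf4. Pf4, the chemokine of platelets and megakaryocytes, had log2 ratios of -2.73, -2.70 and -2.77 at E8.5 and -0.33, -0.36 and -0.96 at E9.5, a rise of 2.19 ± 0.12 (SE, 3 arrays against 3; adjusted p = 1.78e-07) or 4.55-fold. The stages lay far apart, with E9.5 replicate 3 the lowest of its stage. Cfi, the protease that inactivates complement C3b and C4b, stood at -2.75, -2.77 and -2.89 at E8.5 and -0.76, -0.80 and -1.10 at E9.5, a rise of 1.92 ± 0.12. Col1a1, the main chain of type I collagen, rose from -4.37, -4.41 and -4.53 to -2.54, -2.39 and -2.76, by 1.87 ± 0.11, and its dimmer probes rose by less, 0.35 to 1.18. Afp, alpha-fetoprotein, a plasma protein of the fetus, rose from 0.71, 0.28 and 0.51 to 2.26, 2.25 and 2.12, by 1.71 ± 0.12 (adjusted p = 3.63e-07). Afp stood above the reference on all 6 arrays, unlike the other 3 genes, and its rise was 0.25 when the Cy5 channel was used alone with quantile normalization.

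Smaller rises among the 15 largest followed. Slc27a2, which imports and activates very long-chain fatty acids, rose by 1.69 ± 0.10, Urah, an enzyme of urate breakdown, by 1.68 ± 0.11, and Akr1c19, an aldo-keto reductase, by 1.67 ± 0.23. Col1a2, the partner chain of type I collagen, rose by 1.60 ± 0.12 and Col3a1, of type III collagen, by 1.35 ± 0.08. Gsn, the actin-severing protein gelsolin, rose by 1.59 ± 0.16, and Serpind1, heparin cofactor II, which inhibits thrombin, by 1.56 ± 0.10. Itm2a, Cd82, Maob and Krt7 rose by 1.48, 1.45, 1.44 and 1.39. Maob encodes monoamine oxidase B and Krt7 a keratin of simple epithelia. A second probe gave 1.52 for Urah, 1.04 for Akr1c19 and 1.19 for Krt7, while dim second probes gave 0.20 for Slc27a2, 0.09 for Col1a2 and 0.14 for Col3a1.

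**Figure D2:**
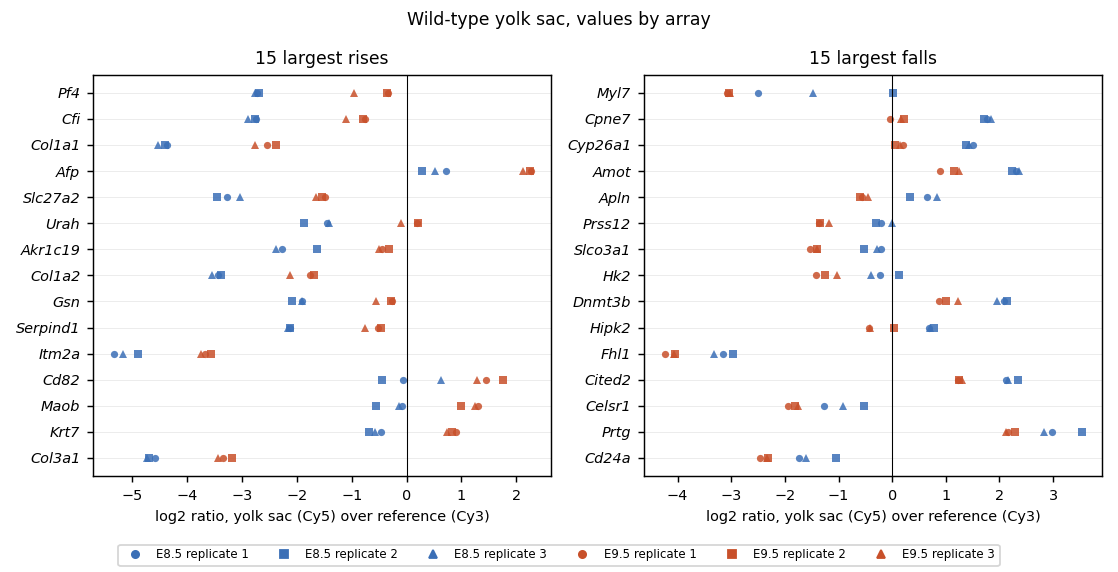
Log2 ratio of yolk sac over reference on each of the 6 wild-type arrays for the 15 genes with the largest rise (left) and the 15 with the largest fall (right); blue is E8.5, orange E9.5, and the marker gives the replicate. The genes were chosen for not overlapping between stages, and Myl7 on E8.5 replicate 2 stands far from the other E8.5 arrays.

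After the heart gene Myl7, the largest falls were those of Cpne7, Cyp26a1, Amot and Apln. Cpne7, a calcium-dependent membrane-binding protein, had log2 ratios of 1.77, 1.71 and 1.84 at E8.5 and -0.05, 0.22 and 0.17 at E9.5, a fall of 1.66 ± 0.10 (adjusted p = 2.2e-07). Cyp26a1, the enzyme that breaks down retinoic acid, stood at 1.50, 1.38 and 1.44 at E8.5 and 0.20, 0.06 and 0.15 at E9.5, and fell by 1.31 ± 0.10. The E9.5 arrays of both genes lay near the reference and all E8.5 arrays well above it. Amot, angiomotin, a regulator of the Hippo pathway, fell from 2.31, 2.23 and 2.37 to 0.89, 1.16 and 1.25, by 1.20 ± 0.09. Apln, the ligand of the apelin receptor on endothelium, fell from 0.64, 0.34 and 0.84 to -0.57, -0.60 and -0.46, by 1.15 ± 0.12, and its second probe gave -1.25. The E9.5 arrays of Apln all lay below the reference and the E8.5 arrays above it.

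Prss12, Slco3a1, Hk2, Dnmt3b, Hipk2, Fhl1 and Cited2 fell by 0.96 to 1.12. Prtg, Celsr1 and Cd24a, which the embryo proper also uses in neural and other epithelia, fell by 0.92, 0.93 and 0.92. In these 3 genes E8.5 replicate 2, the array high in heart and neural markers, was the highest of its stage, with Prtg at 3.53 against 2.97 and 2.83. Without that array they fell by 0.71, 0.74 and 0.71 and stayed called. Myl7, an atrial myosin light chain, stood at -2.50, 0.01 and -1.47 at E8.5 and -3.08, -3.04 and -3.03 at E9.5, and its fall of 1.73 became 1.06 without E8.5 replicate 2. The heart markers had 4 falls among 18 measured, and 1 without both arrays that stood apart. All 30 genes of the largest rises and falls kept their call and direction under 27 alternatives to the processing and the arrays.

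Several secreted proteins of the visceral endoderm rose. Of 25 listed plasma and carrier proteins 21 passed the filter on dim probes, and of these 8 rose and 0 fell, with a median difference of 0.11 against -0.01 for all genes. Besides Afp, these included Trf, transferrin, which carries iron, at -2.18, -2.05 and -2.15 at E8.5 and -1.02, -0.98 and -1.27 at E9.5 (1.04 ± 0.10). All E9.5 arrays of Trf lay above all E8.5 arrays. Serpinf2, the inhibitor of plasmin, rose by 1.06 ± 0.08 and Igfbp1, which binds insulin-like growth factors, by 1.00 ± 0.18. Rbp4, the plasma carrier of retinol, rose by 0.70 ± 0.10 but lay at -0.24 when Cy5 was used alone. Ttr, the carrier of thyroid hormone, differed by 0.11 (adjusted p = 0.563).

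Most of the measured clotting genes rose. Of 18 measured coagulation and fibrinolysis genes, of 20 listed, 11 rose (61.1%) and 0 fell, with a median of 0.33. Fga, a chain of fibrinogen, stood at -2.41, -2.39 and -2.45 at E8.5 and -1.30, -1.46 and -1.58 at E9.5 and rose by 0.97 ± 0.09. Its arrays did not overlap between stages. The chains Fgg and Fgb rose by 0.92 ± 0.09 and 0.32 ± 0.10, Plg, plasminogen, by 0.78 ± 0.08 and F2, prothrombin, by 0.57 ± 0.06. Tfpi, Kng1, Proc, Serpinc1 and F10 rose by 0.31 to 0.71. Without both arrays that stood apart 9 clotting genes rose, and with median centring 8.

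Complement changed in single components. Of 18 measured genes 5 rose, among them Cfb and C2, proteases of the alternative and the classical pathway, by 0.96 ± 0.06 and 0.91 ± 0.10, and Mbl2, a lectin that starts the cascade, by 0.62 ± 0.15. Masp2, a protease that binds such lectins, fell by 0.26 ± 0.06. C3 and C4b differed by -0.13 and -0.06 without passing the test. Without both arrays that stood apart, 3 complement genes rose.

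Promoters of these secreted proteins were searched for GTTAAT, letters known from promoters of liver genes. RefSeq gave the 250 bases before the start (build GRCm38.p6) for 43 of the 57 measured members of the plasma, coagulation and complement lists. It was searched on both strands and found in 14 of these 43 (32.6%), against 406 of the 9819 tested genes with a promoter (4.1%) and 6.5% of all 27025 promoters. It was found in 6 of the 17 that rose (35.3%). The 3 largest rises that hold it are shown, each 5′ to 3′ along its gene. The match or its reverse complement ATTAAC is in capitals.
Afp (chr5:90490464-90490713, plus strand): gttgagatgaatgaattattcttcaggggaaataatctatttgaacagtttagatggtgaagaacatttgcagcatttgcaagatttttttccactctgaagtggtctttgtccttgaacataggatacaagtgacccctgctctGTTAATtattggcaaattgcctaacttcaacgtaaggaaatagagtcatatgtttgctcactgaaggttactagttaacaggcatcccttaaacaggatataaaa
Igfbp1 (chr11:7197537-7197786, plus strand): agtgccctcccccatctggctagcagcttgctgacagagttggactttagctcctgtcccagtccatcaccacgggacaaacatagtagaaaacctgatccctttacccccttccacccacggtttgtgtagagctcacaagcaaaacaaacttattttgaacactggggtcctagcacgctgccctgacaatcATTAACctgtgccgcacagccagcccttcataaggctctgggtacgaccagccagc
Fga (chr3:83025903-83026152, plus strand): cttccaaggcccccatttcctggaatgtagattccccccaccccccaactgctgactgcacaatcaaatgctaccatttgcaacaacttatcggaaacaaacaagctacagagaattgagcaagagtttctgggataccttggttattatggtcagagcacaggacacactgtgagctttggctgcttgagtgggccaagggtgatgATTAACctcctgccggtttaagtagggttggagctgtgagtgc
The match begins 105 bases before the start in Afp, 56 in Igfbp1 and 43 in Fga. A match describes the sequence and was not tested as a binding site.

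Genes of lipid handling rose with few falls. Of 21 measured apolipoproteins and assembly genes 7 rose and 1 fell. Apob, the structural protein of lipoprotein particles, went from 1.31, 1.39 and 1.66 to 2.20, 2.68 and 1.76 (0.76 ± 0.18), and its E9.5 replicate 3 came close to the E8.5 arrays. Apoa4, Pdzk1 and Apoa1 rose by 0.76, 0.58 and 0.41, while Apoc2, the activator of lipoprotein lipase, fell by 0.46 ± 0.08. Of 26 genes of fatty acid uptake and oxidation 8 rose and 0 fell, with Ehhadh, a peroxisomal enzyme, next after Slc27a2 at 0.75 ± 0.08 and Acaa2 of mitochondria at 0.31 ± 0.06. Cholesterol synthesis had 7 rises among 27 genes, led by Scap, which escorts the regulator SREBP, at 0.55 ± 0.05, and Fdft1, squalene synthase, at 0.50 ± 0.07, and 1 fall, Idi1, by 0.36.

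The main receptors of nutrient uptake did not pass the test, while other genes of the uptake route rose. Cubn and Lrp2, cubilin and megalin, differed by 0.15 (adjusted p = 0.265) and 0.10 (adjusted p = 0.53). Of 21 genes of the endocytic apparatus 8 rose and 0 fell, led by Fcgrt, the receptor that carries maternal antibody, from -0.70, -0.87 and -0.81 to 0.04, -0.04 and -0.03 (0.78 ± 0.07). All E9.5 arrays of Fcgrt lay near the reference, and all E8.5 arrays below it. Ap2m1, a subunit of the clathrin adaptor, rose by 0.64 ± 0.09, and Tcn2, the carrier of vitamin B12, and Lrpap1, the chaperone of megalin, by 0.33 and 0.33. Lysosomal genes had 13 rises among 23 (56.5%), 0 falls and a median of 0.23. The cathepsins Ctsa, Ctsd, Ctsc and Ctsb rose by 0.50, 0.48, 0.42 and 0.33, and Psap, the precursor of saposins, by 0.50 ± 0.11. Without both arrays that stood apart, rises numbered 5 in the endocytic, 5 in the fatty acid and 10 in the lysosomal list.

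Transporters moved in both directions. Of 28 nutrient and ion transporters 14 rose (50%) and 5 fell. Slc51a, a subunit of an exporter of bile acids and steroids, rose by 0.93 ± 0.09, Slc7a9, a transporter of cystine, by 0.60 ± 0.10, Slc40a1, the iron exporter ferroportin, by 0.54 ± 0.07 and Slc39a4, an importer of zinc, by 0.50 ± 0.08. Slc16a1, a transporter of lactate and other monocarboxylates, fell by 0.60 ± 0.08 and Slc2a1, the glucose transporter GLUT1, by 0.37 ± 0.08. Detoxification enzymes had 6 rises among 22 and 0 falls, with Gstm1 and Gstm3, close relatives whose probes may share targets, at 0.92 and 0.86 and Cyp2s1 at 0.74.

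Retinoid genes moved in both directions, with 5 rises and 2 falls among 14 measured. Dhrs3, which returns retinal to retinol, rose by 0.41 ± 0.07. Cyp26a1 fell, as given above, and Aldh1a2, which makes retinoic acid, fell by 0.59 ± 0.20. The E8.5 level of Aldh1a2 was highest on replicate 2, at -0.27 against -1.33 and -1.30, and the fall was 0.24 without that array. Aldh1a2 lost its call under 14 of 27 alternatives, the wild-type arrays alone among them. Of 20 endoderm transcription factors and hedgehog genes 5 rose and 1 fell, and 3 rose without both arrays that stood apart. The bile acid receptor Nr1h4 rose by 0.58 ± 0.07 and Nr5a2 by 0.39 ± 0.11, and Sox17 fell by 0.27 ± 0.08, a call lost under 6 of 27 alternatives, while Hnf4a and Foxa2 differed by 0.21 and 0.17 without passing the test.

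Most of the erythroid regulators fell. Of 16 erythroid transcription factors and receptors 10 fell (62.5%) and 2 rose, with a median of -0.39. Zfpm1, the partner of GATA1 called FOG1, stood at 1.92, 1.83 and 1.92 at E8.5 and 0.97, 1.07 and 1.03 at E9.5, a fall of 0.87 ± 0.14 (adjusted p = 0.000428). Tal1, which founds the blood lineage, went from 1.41, 1.20 and 1.31 to 0.57, 0.61 and 0.60 and fell by 0.72 ± 0.12. The arrays of a stage lay close together in both genes. Gfi1b fell by 0.59 ± 0.13, Klf1, the activator of globin genes, by 0.54 ± 0.12, Epor, the erythropoietin receptor, by 0.48 ± 0.12 and Gata1 by 0.36 ± 0.06. Lmo2, Lyl1, Nfe2 and Mllt3 fell by 0.24 to 0.50. Hemgn and Sox6 rose by 0.54 and 0.33, and Hemgn lost its call under 11 of 27 alternatives. With median centring the list median was -0.27, against 0.106 for all genes, and 1 member fell and 1 rose.

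None of the 5 measured globins fell. Hbb-y, the embryonic epsilon-type beta globin, stood at 5.99, 5.70 and 5.96 at E8.5 and 6.88, 6.90 and 6.82 at E9.5, a rise of 0.98 ± 0.21 (adjusted p = 0.00392) that lost its call with the processed signals and with the authors' deposited table of log2 ratios (0.78 there). Hba-a1, adult-type alpha globin, rose by 0.51 ± 0.17 and lost its call under 11 of 27 alternatives, and its near-identical copy Hba-a2 may share the probe. Hba-x, embryonic zeta globin, and Hbb-bh1 differed by 0.15 and 0.08 without passing the test. Of 18 genes of haem synthesis and iron uptake 3 rose (16.7%) and 2 fell (11.1%), shares not far from those of all genes. Among the falls was Cpox, an enzyme of haem synthesis, by 0.48 ± 0.12. Of 23 red cell membrane and enzyme genes 2 rose and 5 fell. Bpgm, which sets the oxygen affinity of haemoglobin, rose by 0.47 ± 0.09, and Trim10 and Ank1, the latter an anchor of the red cell skeleton, fell by 0.51 and 0.42. With median centring 0 genes of these last lists fell. The red cell falls numbered 2 without both arrays that stood apart and 1 without E8.5 replicate 3.

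GATAA, the core letters of GATA factor sites, was searched on both strands in the same 250 bases. It was found in 5 of 14 erythroid list promoters (35.7%), against 15% of the tested genes with a promoter and 23% of all promoters, and in 4 of the 8 with a promoter whose gene fell. GTTAAT was in 0 of the 14. GATAA was also in 10 of the 43 plasma, coagulation and complement promoters (23.3%). Among the 17 of these whose gene rose, 7 held it (41.2%), so it was not particular to the erythroid list. The 3 largest falls that hold GATAA are shown in the same way, with the match or its reverse complement TTATC in capitals.
Tal1 (chr4:115056176-115056425, plus strand): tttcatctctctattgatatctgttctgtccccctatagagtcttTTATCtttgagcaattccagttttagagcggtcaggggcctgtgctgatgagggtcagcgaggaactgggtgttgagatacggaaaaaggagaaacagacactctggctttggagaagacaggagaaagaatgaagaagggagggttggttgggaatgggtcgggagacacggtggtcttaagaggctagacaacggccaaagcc
Gfi1b (chr2:28621983-28622232, minus strand): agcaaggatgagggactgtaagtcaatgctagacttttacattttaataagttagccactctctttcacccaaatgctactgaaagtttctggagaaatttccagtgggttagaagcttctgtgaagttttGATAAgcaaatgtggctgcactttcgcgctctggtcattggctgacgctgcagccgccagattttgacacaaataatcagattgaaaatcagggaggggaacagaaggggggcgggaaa
Klf1 (chr8:84901732-84901981, plus strand): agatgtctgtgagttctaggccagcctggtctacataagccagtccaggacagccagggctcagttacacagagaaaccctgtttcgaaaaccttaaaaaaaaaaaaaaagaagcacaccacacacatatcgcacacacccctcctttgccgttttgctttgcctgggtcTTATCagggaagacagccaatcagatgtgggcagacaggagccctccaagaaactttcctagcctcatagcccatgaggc
The match begins 205 bases before the start in Tal1, 119 in Gfi1b and 80 in Klf1. In the 6 promoters shown no match of one motif overlapped a match of the other.

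Megakaryocyte and platelet genes rose. Of 15 measured members, of 20 listed, 11 rose (73.3%) and 1 fell, with a median of 0.35, and 11 rose with median centring. Clec1b, the platelet receptor for podoplanin, went from -0.33, -0.39 and -0.38 to 0.63, 0.42 and 0.30 (0.82 ± 0.08), and Treml1, a receptor of platelet granules, from -0.62, -0.59 and -0.41 to 0.17, 0.39 and 0.08 (0.75 ± 0.08). In both genes all E9.5 arrays lay above the reference and all E8.5 arrays below it. Gp9 and Gp1ba, parts of the receptor for von Willebrand factor, rose by 0.40 and 0.35, and Vwf itself by 0.43. Ppbp, a platelet chemokine, was not well above background at E8.5 and was at least 1.4-fold higher at E9.5 (adjusted p = 0.00241). Itga2b, a subunit of the fibrinogen receptor, differed by -0.14 (adjusted p = 0.243), and Gfi1b, used by both lineages, was the 1 that fell. Without both arrays that stood apart 8 members rose.

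**Figure D3:**
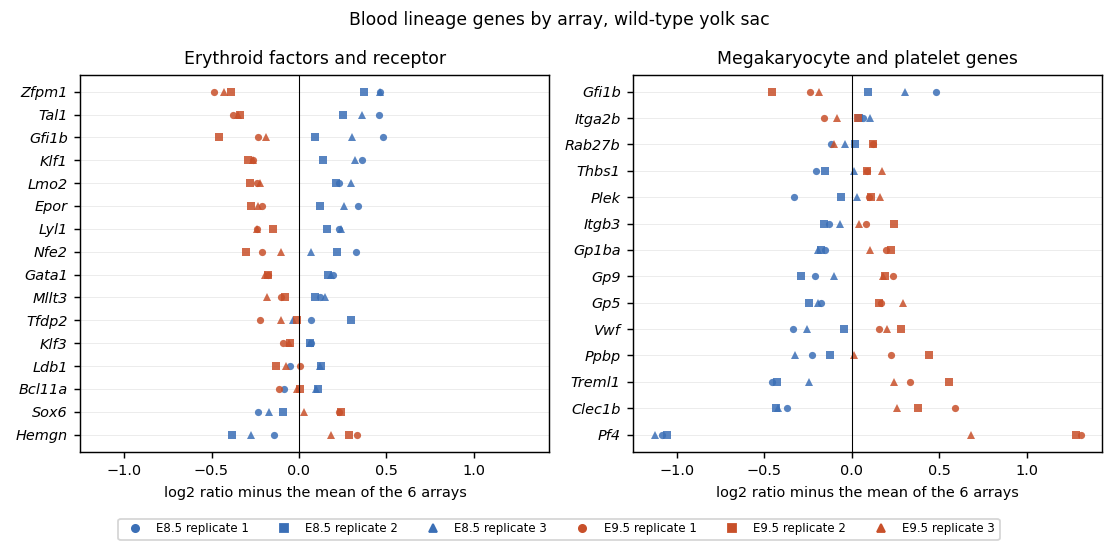
Log2 ratio minus the gene's mean over the 6 wild-type arrays for erythroid factors and the erythropoietin receptor (left) and the megakaryocyte and platelet genes reported here (right); blue is E8.5, orange E9.5, and the marker gives the replicate. From Zfpm1 to Mllt3 all E9.5 arrays lie left of all E8.5 arrays, and from Itgb3 to Pf4 all lie right of them.

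Myeloid genes were mixed. Of 20 measured members 4 rose (20%) and 2 fell (10%), and 15 lay above 0. Rises numbered 6 with the wild-type arrays alone, 6 without both arrays that stood apart and 9 of 21 in the authors' deposited table. Each of these settings kept 2 falls, while median centring gave 5 rises and 0 falls. Mpo, the granule peroxidase, rose from -2.86, -2.72 and -2.96 to -1.87, -1.68 and -2.16 (0.94 ± 0.10), and Lcp1, a leukocyte actin-bundling protein, and Coro1a rose by 0.92 ± 0.08 and 0.65 ± 0.08. The receptor subunits Csf2rb and Csf2rb2, close relatives, fell by 0.77 ± 0.13 and 0.56 ± 0.12. Of 17 regulators of stem and progenitor cells 2 rose (11.8%) and 2 fell (11.8%), shares near the 12.8% and 11% of all genes. Fli1 was down by 0.38 and Ikzf1 by 0.25. Runx1, Kit and Myb, genes of definitive blood progenitors, differed by -0.01, -0.11 and -0.12 without passing the test.

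Single endothelial genes moved in both directions. Pecam1, Cdh5 and Kdr, an adhesion molecule, the junction cadherin and the main VEGF receptor, differed by 0.00, -0.03 and 0.00 without passing the test. Of 35 endothelial identity genes 6 rose (17.1%) and 5 fell (14.3%), with a median of 0.05. These shares were not far from the 12.8% and 11% of all genes. Stab2, a scavenger receptor of sinusoidal endothelium, rose by 0.62 ± 0.09, Robo4 by 0.52 ± 0.07, Cldn5, a tight junction protein, by 0.47 ± 0.05 and Emcn by 0.46 ± 0.08. Falls after Apln were Angpt2, a vessel-destabilising ligand, by 0.34 (a call lost under 6 of 27 alternatives), Sox7 by 0.33, Nos3, endothelial nitric oxide synthase, by 0.23 and Tek, the receptor of angiopoietins, by 0.22. With median centring 1 of the list fell, Apln, at -1.06.

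Among 19 Notch, arterial and venous genes 5 rose and 1 fell. Gja5, connexin 40 of arteries, rose from 0.71, 0.29 and 1.18 to 1.28, 1.52 and 1.43 (0.68 ± 0.16). Its E8.5 arrays were widely spread, and replicate 3 lay just below the E9.5 arrays. Gja4, connexin 37, rose by 0.36 ± 0.08, Ephb4, a receptor of veins, by 0.28 ± 0.06 and Unc5b by 0.26 ± 0.08, which lost its call under 7 of 27 alternatives. Hey1, a Notch target, fell by 0.48 ± 0.10. Dll4, Efnb2 and Nr2f2, a ligand, an arterial and a venous gene, differed by 0.08, -0.09 and 0.07 without passing the test.

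Most of the fibrillar collagen and matrix genes rose. Of 33 fibrillar collagens and matrix proteins 20 rose (60.6%) and 0 fell, with a median of 0.29, and median centring gave 20 rises. After the chains of type I and III collagen came Col5a1, which starts fibril assembly, at 0.90 ± 0.10. Fn1, fibronectin, rose by 0.50 ± 0.07 and Serpinh1, the collagen chaperone, by 0.42 ± 0.07. The collagen-modifying enzymes P4ha2, P3h1, Plod2 and Plod1 rose by 0.49, 0.31, 0.29 and 0.19. Of 18 basement membrane components 10 rose and 0 fell, led by Col4a1 at 0.40 ± 0.06, Col18a1 at 0.37 ± 0.09 and Col4a2 at 0.34 ± 0.07. In Col4a6 and Lama5 the arrays of the stages overlapped. The rises numbered 6 with the wild-type arrays alone, 6 with median centring and 6 without E8.5 replicate 1. Markers of parietal endoderm, a neighbouring layer that makes basement membrane, moved with them: 5 of 13 rose and 1 fell, with Col4a1 and Lamb1 of both lists among the rises, and their summed Cy5 intensity ran from 6040 to 6270 at E8.5 and from 7020 to 7250 at E9.5. Their part in the result was not tested.

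Smooth muscle and mesenchyme genes rose in 6 of 30 cases, with 0 falls. Lum and Dcn, small proteoglycans that bind collagen fibrils, rose by 1.21 ± 0.10 and 0.97 ± 0.08, Postn, periostin, by 0.84 ± 0.10 and Myl9, a light chain of smooth muscle myosin, by 0.65 ± 0.13. Lum went from -0.48, -0.90 and -0.75 to 0.54, 0.46 and 0.50, on opposite sides of the reference. Acta2, smooth muscle actin, differed by 0.10 (adjusted p = 0.337).

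Mesothelial and keratin genes had 9 rises among 15 and 0 falls. After Krt7 came Upk3b, a uroplakin of mesothelium, from 0.42, 0.15 and 0.49 to 1.46, 1.61 and 1.45 (1.16 ± 0.08), Krt19 by 0.71 ± 0.16 and Epcam, an adhesion molecule of epithelia, by 0.60 ± 0.09. Krt19 stood at -0.58, -0.65 and -0.67 at E8.5 and -0.19, -0.03 and 0.44 at E9.5, and its rise was 0.52 without both arrays that stood apart. Without these arrays 5 of the 15 rose.

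Genes of the BMP pathway moved in both directions. In the BMP and TGF-beta pathway 4 of 33 rose (12.1%) and 7 fell (21.2%), against 12.8% and 11% of all genes. The share that rose was thus near that of all genes. The target Tgfbi, the ligand Bmp7 and the receptor Tgfbr2 rose by 0.53, 0.45 and 0.40, and Id1, Id3 and Msx1, targets of BMP signalling, fell by 0.35, 0.52 and 0.32. Ccn2, a growth factor-binding matrix protein, fell by 0.55. With median centring 6 rose and 0 fell, and without both arrays that stood apart 3 fell. In the Wnt pathway 3 of 23 rose (13%) and 2 fell (8.7%), shares near those of all genes, and 1 rose with the wild-type arrays alone and without E8.5 replicate 1. Among them were the ligand-side regulators Dkk2, up by 0.44 ± 0.11, and Dkk1, down by 0.44 ± 0.10.

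Of 26 imprinted genes, expressed from 1 parental copy, 11 rose (42.3%) and 2 fell. Plagl1, a zinc finger factor, rose from -2.29, -2.45 and -2.43 to -1.02, -1.26 and -1.05 (1.28 ± 0.10), with the stages far apart. Cdkn1c, an inhibitor of the cell cycle, rose by 0.88 ± 0.11, Dlk1 by 0.46 ± 0.08 and Igf2, the fetal growth factor, by 0.35 ± 0.07, while Grb10, an adaptor that limits growth signals, fell by 0.47 ± 0.14, a call lost under 7 of 27 alternatives. H19, the RNA gene beside Igf2, differed by 0.20 (adjusted p = 0.0826).

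Several interferon-stimulated genes rose. Of 22 interferon-stimulated genes 10 rose (45.5%) and 0 fell, with a median of 0.20. Rtp4, Bst2 and Rsad2 rose by 0.73 ± 0.10, 0.72 ± 0.10 and 0.54 ± 0.07, and the ubiquitin-like Isg15 by 0.34 ± 0.08. Their sizes depended on the processing: in the authors' deposited table the list median was 0.80 with 13 rises, and Rtp4, Rsad2 and Isg15 differed by 3.14, 2.07 and 1.61. B2m, the light chain of class I molecules, rose from -2.04, -1.94 and -2.07 to -0.71, -0.74 and -0.89 (1.24 ± 0.07), with the stages far apart. Of 14 genes of class I presentation 4 rose and 1 fell. The heavy chain genes H2-D1, H2-T23 and H2-K1 rose by 0.59, 0.47 and 0.46, and since these genes resemble each other and differ between strains, their probes are uncertain. H2-D1 lost its call under 12 of 27 alternatives. Psmb10 of the immunoproteasome fell by 0.37 ± 0.06. Among 24 p53 targets and cell cycle inhibitors 6 rose (25%) and 1, Tigar, fell (4.17%), against 12.8% and 11% of all genes. Trp53inp1 rose by 0.67 ± 0.09 and Pmaip1, a promoter of cell death, by 0.39 ± 0.07. On the 3 slides Cdkn1a differed by 0.2, 0.16 and 0.03, and Mdm2 by 0.02, 0.03 and -0.11. Ccng1 differed by 0.25, 0.26 and 0.25.

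Some cell cycle and replication genes fell. Of 42 measured, 13 fell (31%) and 1 rose, Cdk1 by 0.29, with overlapping arrays and a call lost under 14 of 27 alternatives, for a median of -0.14. Cdc6, which loads the replicative helicase, fell from 1.63, 1.66 and 1.62 to 1.05, 1.11 and 1.29 (0.49 ± 0.07), and the helicase subunits Mcm4, Mcm3 and Mcm2 fell by 0.46, 0.39 and 0.23. Mki67, a marker of dividing cells, differed by -0.10 (adjusted p = 0.535). Ccnd2 fell by 0.66 ± 0.19 with E8.5 replicate 2 at -0.86 against -1.97 and -1.85, and by 0.31 without that array, and it lost its call under 7 of 27 alternatives. With median centring the list median was 0.02, against 0.106 for all genes, and Cdc6 was the 1 fall. The wild-type arrays fitted alone gave 7 falls, and 9 fell without both arrays that stood apart.

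Some genes of the early embryo fell. Of 12 measured early-embryo RNA-binding and pluripotency genes, of 23 listed, 5 fell and 0 rose. The falls numbered 3 without both arrays that stood apart, 2 in the authors' deposited table and 1, beside 1 rise, with median centring. Pou5f1, Nanog and Sox2 were among those that did not pass the filter on dim probes. Lin28b, which blocks maturation of let-7 microRNAs, went from 1.09, 1.34 and 1.20 to 0.56, 0.63 and 0.56, a fall of 0.62 ± 0.06. Hmga2 and Mycn, growth genes of early tissue, fell by 0.63 and 0.61, with E8.5 replicate 2 highest at 2.56 and 1.03. Without that array they differed by -0.33 (adjusted p = 0.121) and -0.41. Of 13 Hox and Cdx genes 3 fell and 1 rose. Hoxb2 fell by 0.49 and was highest on E8.5 replicate 2, at 0.93 against 0.45 and 0.43.

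The de novo DNA methyltransferases moved apart. Dnmt3b fell from 2.08, 2.14 and 1.95 to 0.87, 1.00 and 1.22 (1.03 ± 0.10), while Dnmt3a rose from 2.16, 2.38 and 2.18 to 2.64, 2.82 and 2.61 (0.45 ± 0.07). The stages did not overlap in either gene, and dimmer probes of Dnmt3a gave 0.11. Uhrf1 and Tdg, a partner of maintenance methylation and a DNA glycosylase, fell by 0.38 and 0.32, and Dnmt1 differed by -0.05 (adjusted p = 0.656). These made 3 falls and 1 rise among 13 genes.

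Glycolytic and hypoxia genes fell in 11 of 33 cases (33.3%), with 1 rise and a median of -0.10. Hk2, a hexokinase of rapidly growing cells, went from -0.23, 0.12 and -0.40 to -1.42, -1.25 and -1.03, a fall of 1.06 ± 0.12. Hk1 fell by 0.49 ± 0.10, Pdk1, which keeps pyruvate out of mitochondria, by 0.39 ± 0.06 and Ldha, lactate dehydrogenase, by 0.35 ± 0.06. Bnip3, a hypoxia-induced mitophagy receptor, rose by 0.44 ± 0.06. With median centring the list median was 0.02 and Hk2 was the 1 fall. Falls numbered 8 without both arrays that stood apart, 7 without E8.5 replicate 2 alone and 5 in the authors' deposited table.

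Chaperones of the heat shock response fell in 11 of 21 cases (52.4%), with 2 rises and a median of -0.29. Hsph1, an Hsp110 chaperone, went from 2.33, 2.16 and 2.42 to 1.47, 1.46 and 1.64 (a fall of 0.78 ± 0.09), Hsp90aa1 fell by 0.49 ± 0.08 and Chordc1 by 0.40 ± 0.07. Hspb1, a small heat shock protein, rose by 0.58 ± 0.09. Hspa1a, the inducible Hsp70 with a near-identical copy in Hspa1b, stood at 0.66, -1.01 and 1.09 at E8.5 and -1.42, -1.36 and -0.85 at E9.5. Its arrays overlapped, with E8.5 replicate 2 low, and its fall of 1.46 ± 0.43 (adjusted p = 0.0247) lost its call under 7 of 27 alternatives. With median centring the list median was -0.09, and 2 members rose and 0 fell. Falls numbered 14 without both arrays that stood apart, 7 without E9.5 replicate 1 and 6 in the authors' deposited table.

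Other stress lists moved in both directions, and a few SWI/SNF genes fell. Of 30 unfolded protein and amino acid stress genes 7 rose (23.3%) and 4 fell (13.3%), among them Cebpb up by 0.70 ± 0.08, Xbp1 up by 0.45 ± 0.07 and Asns, asparagine synthetase, down by 0.62 ± 0.10. Without both arrays that stood apart there were 4 rises and 5 falls. Among 20 immediate early genes the calls were 2 rises (10%) and 3 falls (15%), shares near those of all genes, with Myc down by 0.42 ± 0.09. Of 23 SWI/SNF subunits 4 fell (17.4%, against 11% of all genes) and 0 rose. Among the falls was Arid1a itself, by 0.32 ± 0.06. The falls numbered 3 with the wild-type arrays alone and 3 without both arrays that stood apart. With median centring 0 SWI/SNF genes changed.

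The mutant yolk sac over the same day gives a separate set of arrays on the same slides and against the same reference. There 2997 genes were called (21.6%). Of the 3303 genes called in the wild type, 3201 had the same sign in the mutant, and 2057 were called in the same direction in both, 62.3% of the wild-type calls and 68.6% of the mutant calls. Across the 13883 genes, which are not independent replicates, the differences had Pearson's r = 0.806 and Spearman's rho = 0.752. Cfi differed by 1.92 in the wild type against 1.89 in the mutant, Afp by 1.71 against 1.53, Cpne7 by -1.66 against -1.88, and Cyp26a1 by -1.31 against -1.47.

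The difference between the genotypes in their stage change was tested directly, and limma called 0 of 13883 genes (0%), with 795 at an unadjusted p under 0.05. The count was 1 to 2 with Cy5 alone, array weights or the slide as a fixed or random block, and 14 without E8.5 replicate 2 and E9.5 replicate 3. Pf4 rose by 2.19 in the wild type and by 1.20 in the mutant, where it already stood at -1.45, -1.46 and -1.49 at E8.5 (difference of the changes -0.98 ± 0.17, adjusted p = 0.161, with adjusted p from 5.5e-05 to 1 over the alternatives). Col1a1 and Col3a1 differed by 1.12 and 0.73 in the mutant, against 1.87 and 1.35 (adjusted p = 0.265 and 0.161). Mpo differed by 0.24 against 0.94 (adjusted p = 0.265). Plekhd1, singled out after its values were seen, had the lowest adjusted p, 0.111.

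**Figure D4:**
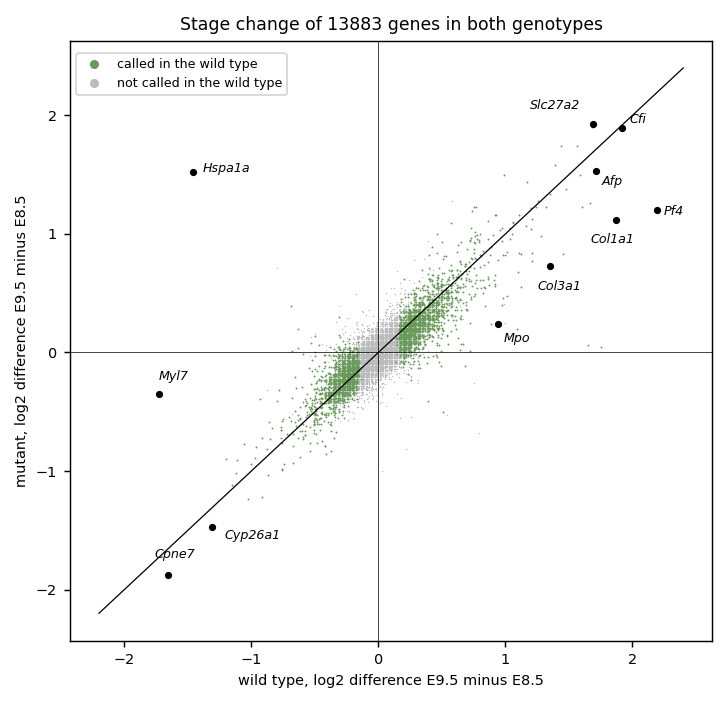
Stage difference (E9.5 minus E8.5, log2) of each of the 13883 genes in the wild type (horizontal) and the mutant (vertical); green genes were called in the wild type, the line marks equal differences, and named genes are in black. Most genes lie along the line (r = 0.806), Pf4 and the collagens lie below it, and Hspa1a fell in the wild type and was higher at E9.5 in the mutant.

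The normalization within arrays shifted most list medians upward. With median centring all genes moved from -0.011 to 0.106, erythroid factors from -0.39 to -0.27, coagulation genes from 0.33 to 0.54, collagens from 0.29 to 0.44 and megakaryocyte genes from 0.35 to 0.41. The median SE of a difference was 0.108 with median centring, against 0.0674 with loess.

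**Figure D5:**
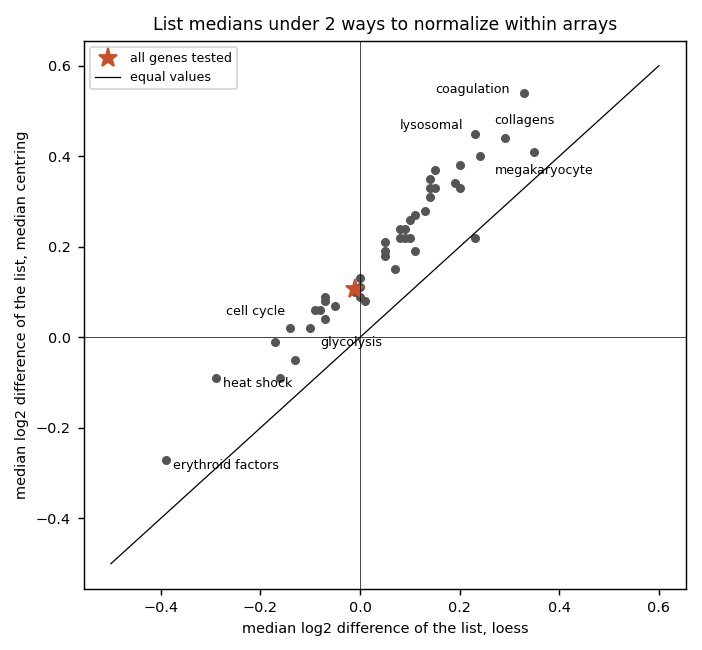
Median stage difference (log2) of each gene list with loess (horizontal) and with median centring of each array (vertical); the star marks all genes tested and the line equal values. Each list except the 5 trophoblast markers lies above the line, the star is at -0.011 and 0.106, and erythroid factors are lowest on both axes.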

How the data were processed

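The deposited per-array files hold mean and median local background intensity per spot and channel, without normalization, plus, per the file headers, processed signals from Feature Extraction 9.5.1.1, their log10 ratio, and flags. A deposited table of the whole series gives log2 ratios that the authors centred on each probe's median (19007 probes). It correlated with the per-array ratios with r = 1 on each array. The per-array files held 41174 probes, named from a table of RefSeq genes (8128 kept the files' name).

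In R 4.3.3 with limma 3.58.1, background was removed with normexp (offset 50) and log2 ratios were normalized by loess within arrays. Spots over 20 units below local background and outlier spots were set to missing. Probes well above background in Cy5 on all 3 arrays of at least 1 group were kept, with the brightest probe per gene. Limma was fitted to the 12 arrays with 4 group means and Benjamini-Hochberg adjustment over 13883 genes. Data of that size were simulated with independent noise, and 50 genes each were changed 1.25-, 1.5-, 2- and 3-fold. Limma recovered 66% of 1.25-fold, 86% of 1.5-fold and 100% of 2-fold changes, with 10 false calls. The simulation held no slide or normalization error, so it does not measure their part in the calls.

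Replicate numbers mark the slide. Deviations of same-numbered E8.5 and E9.5 arrays from their group means correlated with r = 0.226, 0.38 and 0.175. For arrays of different numbers r ran from -0.284 to 0.0988. Deviations within a group share its mean, so these values are not independent of each other. The main fit held no slide term, and the replicate block was an alternative. The arrays and lists were chosen with earlier results of these data known. Named were the 15 largest rises and falls with stages that did not overlap, and in each list up to 4 called members each way and the first 3 measured. Further members given by symbol were chosen after their values were seen. Results of some genes are not reported here.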

Additional observations from a re-analysis of the deposited data

Results flagged for a closer look

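In 3 genes named above and called in the wild type, every slide moved one way in the wild type and the other way in the mutant. The difference did not pass limma's test. Hspa1b and Xist, not called in the wild type, also moved in opposite directions on every slide. Xist differed by -0.61, -3.35 and -0.32 in the wild type and by 0.01, 3.5 and 3.04 in the mutant. Hspa1a fell by 1.46 in the wild type and rose by 1.52 in the mutant, where it stood at -1.35, -2.00 and -1.90 at E8.5 and 0.44, -0.12 and -1 at E9.5 (difference of the changes 2.98 ± 0.61, adjusted p = 0.265). Unc5b, a netrin receptor of vessels, had a difference of the changes of -0.49 (adjusted p = 0.292), and Ephb4 one of -0.35 (adjusted p = 0.41).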

How the results depend on the processing

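The count of genes called in the wild type was 3303, and between 3035 and 3941 over 11 other ways to process the arrays, replicate block included (3941, with 3302 of the genes called shared). It was 1458 with median centring, 54 when a 2-fold change was also asked, 2620 from the wild-type arrays alone, 3141 from the authors' table and 2612 without E8.5 replicate 2 and E9.5 replicate 3. Leaving out 1 array gave 2293 (without wild-type E9.5 replicate 1) to 3312. The replicate block changed no count of calls by over 1.5 times in the wild type. The test of the difference between genotypes gave 1 gene with Cy5 alone, 2 with array weights, 1 with the replicate block, 1 with the slide as a random block, 14 without both arrays and 0 to 5 without 1 array (5 without wild-type E9.5 replicate 3). Of 239 named genes called, 127 kept their call and direction under all 27 alternatives. The losses were mostly falls under median centring, where 17 of 92 named falls were still called and all 92 lay below 0. Tigar turned to 0.20 with the processed signals and to 0.20 in the authors' table, and with Cy5 alone Rbp4 turned to -0.24 and Slc2a3, not called at 0.04, to -0.21; the cause was not tested. Signal over background limits dim genes: 33 genes that rose were not well above background at E8.5, 5 that fell were not at E9.5, and 176 genes were never above background in Cy3. Of 1297 genes called that had another probe, 55.2% had one that changed in the same direction by 50% or more of the size.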
